A study of Mus musculus with 55 samples.

Results

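This account follows the pre-mRNA of genes of the actin cytoskeleton, of serum response factor (SRF) and of the YAP pathway as mouse embryonic stem (ES) cells left mitosis. The genes were chosen by name: Actb, Actg1, Srf, Vcl, Cyr61, Ctgf, Amotl2, Lats2, Yap1 and Tead1. Of these 10 genes, 7 were listed in both tables of pre-mRNA levels, which hold 9911 genes for the first cell line and 10237 for the second, 9574 of them shared. Cyr61, Ctgf and Lats2 were not listed and were not analysed here.

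Both lines derive from E14Tg2a ES cells of strain 129/Ola, grown in serum and LIF. CCNA-GFP cells carry a cell cycle reporter and gave 19 libraries. CTCF-AID cells are 1 clone (#EN52.9.1) in which the architectural protein CTCF is fused to an auxin-inducible degron, and gave 18 libraries without the auxin IAA and 18 with 0.5 mM IAA. Mitotic (M) and released cells of every arm had been held for 4 h in 10 µM RO-3306, a CDK1 inhibitor, then for 4 h in 50 ng/ml nocodazole, and were collected by shake-off. IAA was added after the first 2 h of nocodazole and kept during release, so mitotic +IAA cells had 2 h of it, and asynchronous +IAA cells were given it for 4 h. Asynchronous and mitotic cells had 3 replicates in each arm. Cells at 20, 40, 60 and 120 min after release came from replicates 1 and 2, and those at 90 min (and at 30 min for CCNA-GFP and 50 min for CTCF-AID) from replicates 1 and 3, while CCNA-GFP at 50 min was a single library of replicate 3. IAA acts on the CTCF protein, so RNA levels do not check the depletion. After the shake-off the dishes were, per the study's methods, deliberately left without a gelatine coat, and asynchronous cells had no arrest, so stage, attachment and drug exposure cannot be told apart in the comparisons with asynchronous cells.

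Actin monomers, SRF and YAP form linked sensors of cell shape. When monomeric actin is used up by filament assembly, MRTF cofactors are freed to join SRF on CArG boxes in front of cytoskeletal genes, the actins among them. YAP enters the nucleus of spread, tense cells, binds TEAD factors, and is held back by the Hippo kinases and by angiomotins. Cells round up in mitosis and spread again afterwards.

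Levels are TPM, a length-normalised measure of transcript abundance, assigned to an intron-containing isoform that spans each gene, which scales with the RNA being made more closely than mature mRNA does. The summed TPM of all listed genes ran from 13747 to 43370 per library and was itself stage-dependent. In CCNA-GFP cells its median was 14734 in M, 36784 at 60 min and 20541 in asynchronous cells. Of 8 ES cell markers 7 were listed in both tables, with a median level of 5.91 TPM in CCNA-GFP and 7.28 TPM in CTCF-AID libraries. Of 6 fibroblast or feeder markers none was listed for CCNA-GFP, and Col1a1 and Thy1 were listed for CTCF-AID, with their sum between 0.146 and 3.42 TPM. No endoderm marker of 4 was listed, and of 3 mesoderm and 3 trophectoderm markers T, Eomes, Gata3 and Cdx2 were listed in 1 or both tables at 5.18 TPM or less. The part of such cells in the results was not tested. In bulk samples fewer cells expressing a gene and less RNA per cell cannot be told apart.

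The promoters of the genes show which of them carry the sequences that SRF and TEAD factors bind. RefSeq windows (GRCm38.p6) were at hand for 5 of the 7 genes, Actg1, Srf, Vcl, Amotl2 and Yap1. In the 250 bases before the start of transcription, both strands were searched for the CArG box, for the core TEAD motif GGAATG and for TATAAA. A CArG box was found for Actg1, Vcl and Srf, in the last of them at 2 places, against 1.47% of 32851 promoter windows of the same length. GGAATG or its reverse complement was found for Vcl, Amotl2 and Yap1, against 12.6% of all windows. TATAAA was found, on the other strand, for Srf, against 12.4% of all windows. No match of one motif overlapped another. The stretches around the matches are shown because the members were picked as known SRF and YAP targets, with CArG boxes and the GGAATG motif in capitals (for Amotl2 its reverse complement) and each sequence in the direction of transcription.
Srf, chr17:46556185-46556274, minus strand: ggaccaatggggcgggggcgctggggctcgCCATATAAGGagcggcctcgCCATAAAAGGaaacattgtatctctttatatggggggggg
Actg1, chr11:120348546-120348615, minus strand: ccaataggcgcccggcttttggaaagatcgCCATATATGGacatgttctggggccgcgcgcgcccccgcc
Vcl, chr14:20929148-20929290, plus strand: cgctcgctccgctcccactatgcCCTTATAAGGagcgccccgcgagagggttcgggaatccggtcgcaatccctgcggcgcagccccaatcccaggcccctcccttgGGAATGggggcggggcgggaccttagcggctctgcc
Amotl2, chr9:102717727-102717756, plus strand: ctgaaactctcaCATTCCtggcatagcagc
Yap1, chr9:8004702-8004767, minus strand: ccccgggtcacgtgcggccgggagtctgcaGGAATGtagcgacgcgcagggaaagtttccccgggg
The Srf boxes begin 82 and 62 bases before the start, that of Actg1 90 bases and that of Vcl 227 bases before it, and the GGAATG matches of Vcl, Yap1 and Amotl2 lie 143, 141 and 65 bases before it. The Amotl2 stretch lies in an exon of a longer annotated transcript of the gene. A match describes the sequence and shows no binding.

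Against mitosis, 4 genes (Actb, Actg1, Srf and Amotl2) rose by 40 min in all 3 arms, and by 60 min all but Tead1 had risen in every arm. Each stage was set against M in limma on log2(TPM + 1), blocked on the replicate number, and a gene was called at a Benjamini-Hochberg adjusted p under 0.05 over all genes of the table. At 20 min none of the 7 genes was called in any arm, as was no other gene. An unadjusted p under 0.05 was held there by 0, 1 and 0 of the 7 in CCNA-GFP, CTCF-AID -IAA and CTCF-AID +IAA cells. Of all genes 253 of 9911, 397 of 10237 and 149 of 10237 had one. At 30 min in CCNA-GFP cells 0 of 7 were called, where 0.303% of all genes were called higher. An unadjusted p under 0.05 was found for 2 of the 7 and for 1135 of all 9911 genes. At 40 min 4, 5 and 4 genes were called higher, against 49.3%, 63.3% and 58.7% of all genes. Without replicate 1 the value of Srf in CCNA-GFP cells (0.41) and those of Actb in the CTCF-AID arms (0.80 and 0.67) were not called at 40 min. Scaled to the same total of listed TPM in every library (the same-total scale), the 40 min calls of Actb (0.12, 0.25 and 0.26) and those of Srf in CCNA-GFP and CTCF-AID -IAA cells (0.25 and 0.33) ended as well. At 50 min 6 genes were called higher in each CTCF-AID arm, against 79.1% and 78.2%. The call of Yap1 with IAA at 50 min was lost without the block (0.28) and without replicate 1 (0.18) or 2 (0.24). On the same-total scale only the calls of Actg1, Srf and Amotl2 held at 50 min, and Yap1 was called lower (-0.41 and -0.58). At 60 min 6 of 7 were called higher in each arm, against 88.3%, 84.8% and 82.2% of all genes, so that the share of the members was near the background. At 90 min the counts were 7, 6 and 4 against 89.1%, 74.8% and 73.8%, and at 120 min 7, 5 and 3 against 90.2%, 69.6% and 68.2%. Of these only the calls of Actg1 and Srf, 2 members in each arm, held on the same-total scale at 90 and at 120 min. Without the replicate block the counts without IAA were 3 and 3, the calls of Vcl (0.44 and 0.46) and Tead1 ending at both stages and that of Yap1 at 90 min (0.25), and the call of Vcl at 90 min with IAA (0.44) ended too. Without replicate 3 the calls of Vcl at 90 min in both CTCF-AID arms (0.47 and 0.43) were lost. That of Yap1 at 90 min without IAA was lost without replicate 2 (0.25) or 3 (0.15). The 1 member called lower than M at any stage was Amotl2 at 120 min with IAA, against 4.42% of all genes, and without the block it was not called. More members were called lower on the same-total scale, among them Tead1 and Yap1 at 40 min and Amotl2 at 120 min (-0.38, -0.80 and -0.96) in each arm.

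The size of the change set the genes apart more than the call. At 60 min the median log2 fold change of all genes was 0.79 in CCNA-GFP, 0.63 in CTCF-AID -IAA and 0.63 in CTCF-AID +IAA cells, and the medians over the 7 members were 1.18, 1.09 and 0.99. With a pseudocount of 0.1 the medians of all genes were 1.30, 1.02 and 1.03 and those of the members 1.58, 1.23 and 1.14, so the sizes and the gaps between them depend on the pseudocount. With libraries scaled to the same total, the median of all genes fell to 0.02, 0.06 and 0.06, and the split of genes called higher and lower at 60 min in CCNA-GFP cells went from 8749 and 51 to 3607 and 3302. In the CTCF-AID arms it went from 8677 and 276 to 4030 and 3181 without IAA and from 8419 and 414 to 4162 and 3399 with IAA. On that scale 2 (Actg1 and Amotl2), 2 (Actg1 and Srf) and 3 (Actg1, Srf and Amotl2) members remained called higher at 60 min in the 3 arms, and Tead1 was called lower in each. The median over the 7 members was then the value of Vcl, at 0.19, 0.21 and 0.14, so the gap to all genes was smaller there. The rises described next are therefore changes of the deposited TPM, and same-total values are given beside the main results.

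**Figure D1:**
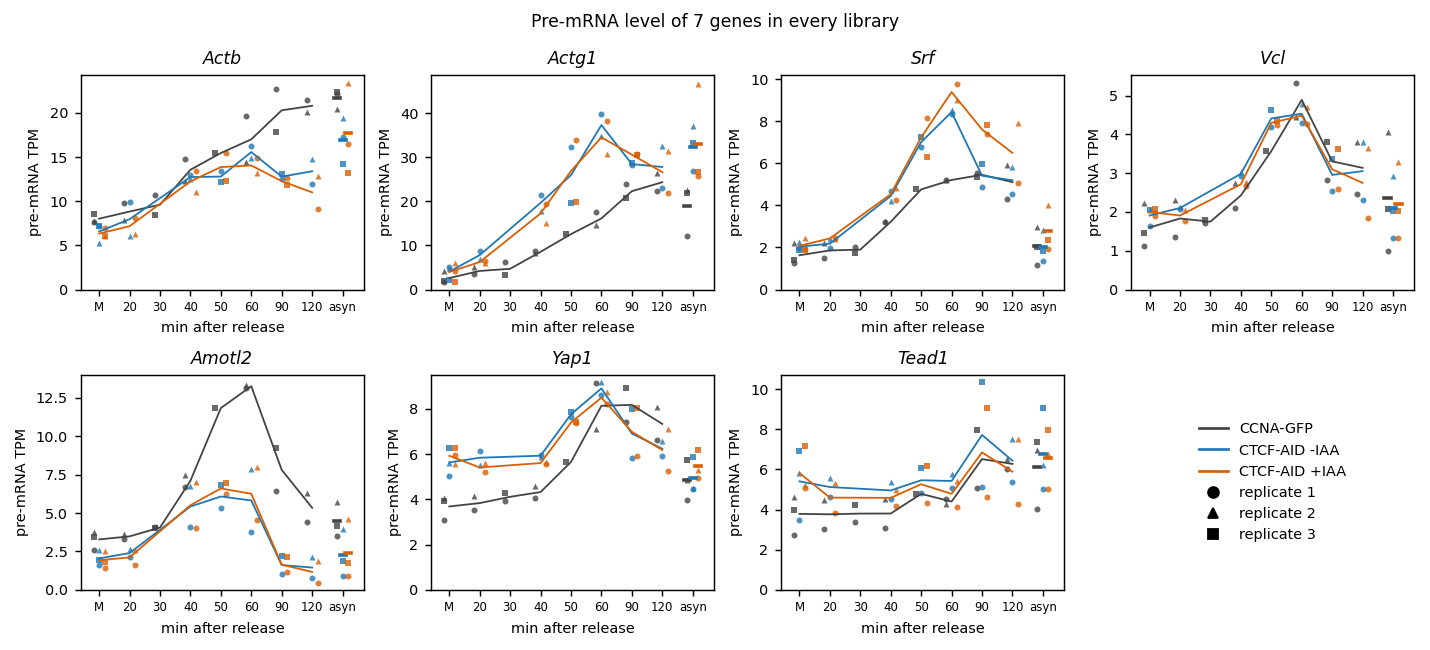
Pre-mRNA level (TPM, linear axis from 0) of 7 genes in every library against the stage (M, min after release, asynchronous), with 1 panel per gene. Points are libraries shaped by replicate, lines join the means of each arm and short bars are asynchronous means; Amotl2 reached 13.3 TPM (mean) at 60 min in CCNA-GFP cells and fell afterwards in all 3 arms.

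Of the 2 cytoplasmic actins, Actg1 had the greatest rise of the members at 60 min in each arm, and Actb a smaller one. Actg1 (γ-actin, chr11:120345690-120348542, minus strand, a gene of 2.85 kb) was at 1.67, 4.22 and 1.94 TPM in the 3 mitotic CCNA-GFP libraries and at 17.5 and 14.7 TPM at 60 min. It stood at 22.4 and 26.3 TPM at 120 min and at 12.1, 22.65 and 21.97 TPM in asynchronous cells. The mitotic libraries lay below all of these, without overlap. In CTCF-AID -IAA cells Actg1 was at 5.198, 4.857 and 2.148 TPM in M, 39.7 and 34.9 TPM at 60 min, 23.0 and 32.6 TPM at 120 min and 26.9, 37.2 and 33.2 TPM in asynchronous cells. With IAA it was at 4.11, 6.05 and 1.82 TPM in M, 38.3 and 30.8 TPM at 60 min, 21.9 and 31.3 TPM at 120 min and 25.9, 46.6 and 26.7 TPM in asynchronous cells. Again none of these later libraries overlapped with M, and replicate 3 was the lowest of the M libraries in both CTCF-AID arms. The log2 fold change at 60 min was 2.22 ± 0.25 (SE), 2.81 ± 0.26 and 2.75 ± 0.26 in the 3 arms (limma adjusted p = 4.95e-08, 9.15e-10 and 1.12e-09), which placed Actg1 at percentile 99.5 of all genes in CCNA-GFP and 99.9 in CTCF-AID +IAA cells. Already at 40 min it was 1.38, 1.92 and 1.79 (adjusted p = 0.000121, 8.7e-07 and 2.41e-06). On the same-total scale the rise at 60 min was 1.08, 1.92 and 1.86, still called in each arm.

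Actb (β-actin, chr5:142903115-142906754, minus strand, 3.64 kb) moved less. It was at 7.70, 7.77 and 8.60 TPM in M and 19.6 and 14.4 TPM at 60 min in CCNA-GFP cells. Without IAA it was at 7.22, 5.32 and 7.17 TPM in M and 16.3 and 14.9 TPM at 60 min, and with IAA at 6.96, 6.03 and 6.01 TPM and 14.9 and 13.3 TPM. The 2 groups did not overlap in any arm. The log2 fold change of Actb at 60 min was 0.97 ± 0.13, 1.09 ± 0.19 and 0.99 ± 0.19 (limma adjusted p = 8.47e-07, 1.17e-05 and 4.17e-05), but -0.29, 0.19 and 0.09 on the same-total scale, called lower in the first arm and not called in the CTCF-AID arms. Asynchronous cells held the highest mean of Actb of any stage in each arm, with 22.2, 20.5 and 22.4 TPM in CCNA-GFP, 17.3, 19.4 and 14.2 TPM without IAA and 16.5, 23.4 and 13.2 TPM with IAA. Both actins were thus among the genes with the greatest difference between asynchronous and mitotic cells, Actb at 1.33 ± 0.12, 1.25 ± 0.17 and 1.31 ± 0.17 (percentiles 99.5, 99.7 and 99.7) and Actg1 at 2.48 ± 0.21, 2.77 ± 0.23 and 2.81 ± 0.23, where the median of all genes was 0.33, 0.12 and 0.15. These calls of both actins held under every alternative tried. Of the 7 members 5, 3 and 2 were called higher in asynchronous cells than in M, against 70.4%, 34.3% and 40.9% of all genes. The members called beside the actins were Amotl2, Yap1 and Tead1 in CCNA-GFP cells (0.34, 0.32 and 0.56) and Tead1 without IAA (0.29), and none of these calls held on the same-total scale, where Amotl2 was at -0.14, Yap1 at -0.18 (called lower) and Tead1 at 0.07 and 0.13. Leaving out 1 replicate also ended the calls of Amotl2 (0.26 without replicate 2), Yap1 (0.25 without replicate 3) and Tead1 without IAA (0.21 and 0.26 without replicates 1 and 3), and without the block these 3 calls were lost at 0.34, 0.32 and 0.29. The coding sequences of Actb and Actg1 are each 1128 bases long and 88.7% identical, with the longest shared run 62 bases, and reads from such stretches and from copies elsewhere could have been split between them by the authors' counting, so their separate levels are uncertain to that degree.

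Srf, the transcription factor itself (chr17:46548329-46556175, minus strand, 7.85 kb), was called higher than in mitosis at every stage tested from 40 min on, and in asynchronous cells it was not. Scaled to the same total, it was called in each arm at 90 min (0.54, 0.70 and 1.09) and 120 min (0.33, 0.55 and 0.78), and at 40 min only with IAA (0.37). In CCNA-GFP cells it was at 1.25, 2.23 and 1.41 TPM in M, 5.213 and 5.197 TPM at 60 min, 5.55 and 5.36 TPM at 90 min, 4.29 and 5.91 TPM at 120 min and 1.16, 2.95 and 2.04 TPM in asynchronous cells. In CTCF-AID -IAA cells it was at 1.98, 2.25 and 1.89 TPM in M, 8.34 and 8.52 TPM at 60 min, 4.86 and 5.95 TPM at 90 min, 4.54 and 5.84 TPM at 120 min and 1.38, 2.85 and 1.85 TPM in asynchronous cells. The libraries of 60, 90 and 120 min lay above all M and all asynchronous libraries in both arms, while the M and asynchronous libraries overlapped. With IAA Srf was at 1.92, 2.45 and 1.87 TPM in M, 9.78 and 8.99 TPM at 60 min, 7.39 and 7.82 TPM at 90 min, 5.08 and 7.90 TPM at 120 min and 1.93, 4.01 and 2.34 TPM in asynchronous cells, in the same order. The log2 fold change at 60 min was 1.21 ± 0.15, 1.60 ± 0.15 and 1.72 ± 0.15 (limma adjusted p = 3.19e-07, 1.76e-09 and 4.84e-10), and 0.21, 0.81 and 0.93 on the same-total scale, on which the first was not called. Asynchronous cells against M gave 0.19 ± 0.13, -0.03 ± 0.14 and 0.25 ± 0.14 (adjusted p = 0.206, 0.868 and 0.13), with 95% intervals from -0.09 to 0.47, -0.32 to 0.25 and -0.03 to 0.54. This value was called at 0.36 and 0.44 in CCNA-GFP and CTCF-AID +IAA cells when libraries were divided by their step factor, a per-library scale read from the lowest values, and at 0.31 and 0.38 without replicate 1, the library with the lowest asynchronous level.

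In early G1, taken as the mean of 90 and 120 min, Srf exceeded asynchronous cells by 1.11 ± 0.13, 1.10 ± 0.13 and 1.14 ± 0.13 on the log2 scale (limma adjusted p = 2.52e-07, 1.09e-07 and 6.77e-08), at percentiles 96.6, 97.3 and 97.7 of all genes. Among the members it was the only one whose early G1 call held in each arm under every alternative tried, with values from 0.65 to 1.45 over the arms. Of the 7 members 4, 3 and 3 were called higher in early G1 than in asynchronous cells, against 70.3%, 61.5% and 58.5% of all genes, and 0, 1 and 1 lower, against 7.99%, 8.57% and 9.63%. This balance turned on the same-total scale, with 1 member (Srf) called higher in each arm and 2, 4 and 4 lower, Actb and Tead1 in each arm and Actg1 and Amotl2 in both CTCF-AID arms. Vcl and Yap1 were called in all 3 arms at lower values (Vcl 0.47, 0.43 and 0.35, Yap1 0.61, 0.37 and 0.24), and Amotl2 was called in CCNA-GFP cells (0.50 ± 0.12, limma adjusted p = 0.000711) and not in the CTCF-AID arms (-0.21 and -0.32, adjusted p = 0.243 and 0.0766). The calls of Vcl did not hold without replicate 3 in any arm (0.44, 0.38 and 0.27), nor without replicate 1 in CCNA-GFP (0.29) and CTCF-AID +IAA cells (0.37), and that of Yap1 with IAA did not hold without replicate 2 (0.16) or 3 (0.22). Without the block the calls of Vcl in the 3 arms (0.42, 0.39 and 0.30) and that of Yap1 with IAA (0.22) were lost. With the step factor those of Vcl (0.30, 0.19 and 0.14), of Yap1 in the CTCF-AID arms (0.08 and -0.01) and of Amotl2 in CCNA-GFP cells (0.31) were lost. On the same-total scale Vcl fell to 0.05, 0.13 and 0.06, Yap1 to 0.11, 0.03 and -0.09 and Amotl2 to 0.00, none of them called. Actb was called lower in early G1 in the CTCF-AID arms at -0.36 ± 0.16 and -0.56 ± 0.16 (adjusted p = 0.0426 and 0.00333). Without replicate 1 these were -0.24 and -0.48 and were not called, and without replicate 3 (-0.49) or the block (-0.34) the first was not called.

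Vcl encodes vinculin, which ties actin filaments to focal adhesions and adherens junctions (chr14:20929398-21033676, plus strand, 104 kb). It lay between 1.12 and 2.23 TPM in the 3 mitotic CCNA-GFP libraries and at 5.33 and 4.46 TPM at 60 min. In the mitotic CTCF-AID libraries Vcl lay between 1.63 and 2.05 TPM without IAA and between 1.90 and 2.07 TPM with IAA, and at 60 min it was at 4.30 and 4.77 TPM and at 4.27 and 4.70 TPM. No mitotic library overlapped with 60 min. The log2 fold change of Vcl was 1.18 ± 0.20, 0.94 ± 0.16 and 0.88 ± 0.16 (limma adjusted p = 1.16e-05, 5.78e-06 and 1.42e-05), and 0.19, 0.21 and 0.14 on the same-total scale, not called. At 40 min it was called in CTCF-AID -IAA cells (0.47, adjusted p = 0.0108) and missed the threshold in the other arms (0.39 and 0.32, adjusted p = 0.105 and 0.0779). The one call was lost on the same-total scale (0.02), without the block (0.46) and without replicate 1 (0.30). Vcl overlaps Ap3m1 on the opposite strand. Srf, Yap1 and Tead1 also overlap genes on the opposite strand (Gm26904, Gm20416 and 2310014F06Rik), none of them listed. The libraries kept strand, but whether strand was used in counting is not given in the sources used here. Reads from these overlaps could therefore be shared.

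Yap1, the coactivator (chr9:7931999-8004596, minus strand, 72.6 kb), rose later. In CCNA-GFP cells it was at 3.10, 4.05 and 3.91 TPM in M, 4.07 and 4.58 TPM at 40 min and 9.17 and 7.11 TPM at 60 min. In CTCF-AID -IAA cells it was at 5.02, 5.61 and 6.26 TPM, 5.98 and 5.89 TPM and 8.61 and 9.20 TPM, and with IAA at 5.96, 5.56 and 6.26 TPM, 5.58 and 5.63 TPM and 8.24 and 8.77 TPM. The M and 40 min libraries overlapped in the CTCF-AID arms, and those of 60 min lay above both in every arm. Yap1 was not called at 40 min (log2 fold changes 0.24, 0.13 and -0.00) and was called at 60 min with 1.02 ± 0.14, 0.65 ± 0.10 and 0.52 ± 0.10 (limma adjusted p = 7.84e-07, 1.73e-06 and 3.2e-05). On the same-total scale these turned to -0.14, -0.22 and -0.35, the last 2 called lower. The members that rose later are also the longer genes. By length, Yap1, Vcl and Tead1 lay at percentiles 83.6, 90.1 and 97.6 of the CCNA-GFP genes. Actg1, Actb, Srf and Amotl2 lay at 4.03, 6.4, 19.3 and 40.5. The measured isoform spans the whole gene, and the part of gene length in the timing was not tested.

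**Figure D2:**
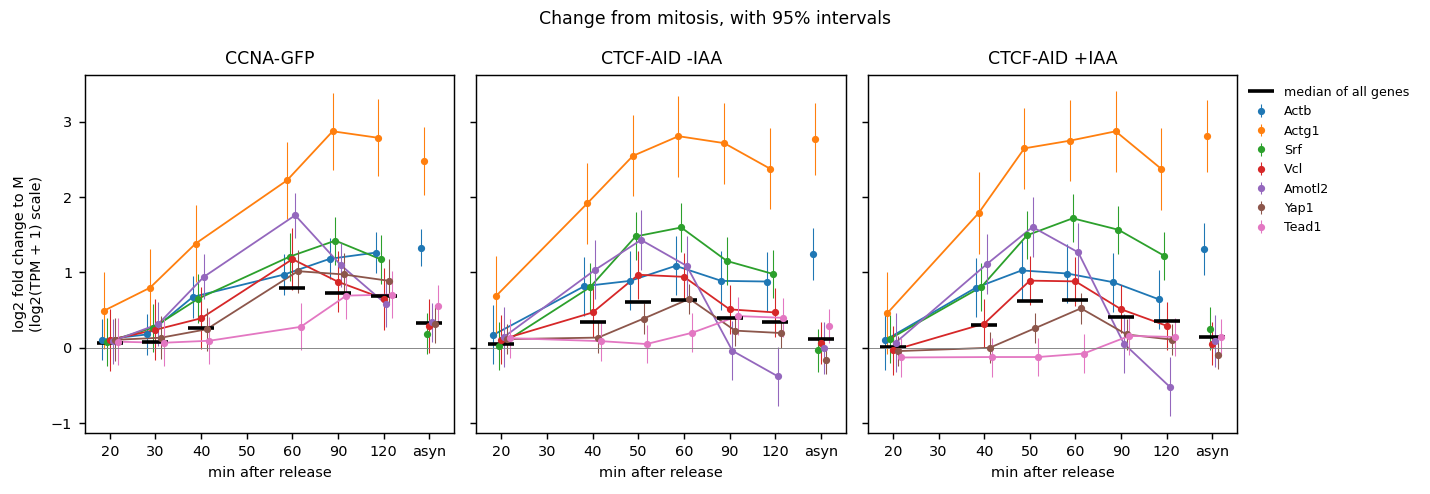
Log2 fold change from M (log2(TPM + 1) scale) of 7 genes against the stage in each arm, with 95% intervals from limma as vertical lines and the median of all genes as black bars. Actg1 is the highest at every stage from 40 min on, Tead1 is under the median of all genes at 60 min, and Amotl2 drops from 50 or 60 min to 120 min.

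Amotl2 showed a sharp burst. Its product, angiomotin-like 2, sits at cell junctions and binds YAP, and the gene is itself a YAP target (chr9:102716672-102733418, plus strand, 16.7 kb). In CCNA-GFP cells Amotl2 was at 2.61, 3.79 and 3.46 TPM in M, 6.71 and 7.50 TPM at 40 min, 11.8 TPM in the single library of 50 min, 13.2 and 13.4 TPM at 60 min, 6.42 and 9.21 TPM at 90 min, 4.40 and 6.29 TPM at 120 min and 3.48, 5.69 and 4.19 TPM in asynchronous cells. The 60 min libraries lay above all others of that line. In CTCF-AID -IAA cells it was at 1.61, 2.61 and 1.92 TPM in M, 4.08 and 6.77 TPM at 40 min, 5.35 and 6.81 TPM at 50 min, 3.76 and 7.89 TPM at 60 min, 1.01 and 2.21 TPM at 90 min, 0.753 and 2.15 TPM at 120 min and 0.911, 3.98 and 1.87 TPM in asynchronous cells. With IAA it was at 1.43, 2.55 and 1.80 TPM in M, 4.00 and 7.02 TPM at 40 min, 6.22 and 6.99 TPM at 50 min, 4.54 and 7.98 TPM at 60 min, 1.17 and 2.11 TPM at 90 min, 0.468 and 1.86 TPM at 120 min and 0.886, 4.59 and 1.75 TPM in asynchronous cells. In both CTCF-AID arms the 40 to 60 min libraries lay above those of M, 90 and 120 min, and replicate 1 was under replicate 2 at each stage they shared.

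The mean of Amotl2 peaked at 60 min in CCNA-GFP cells and at 50 min in both CTCF-AID arms. Stages differ in which replicates they hold: within replicate 1 the peak was at 60 min in CCNA-GFP cells, which had no 50 min library of it, and at 50 min in both CTCF-AID arms, and replicate 2, which had no 50 min library, was highest at 60 min in each arm. Whether the 2 tables share a scale is not given in the sources used here, and this difference between lines was not tested. The peak was 2.98, 2.70 and 2.74 times the asynchronous mean, at percentiles 81.8, 73.5 and 74.4 of all genes. Over all genes the median of this ratio was 1.84, 1.93 and 1.90. The log2 fold change from M at 60 min was 1.76 ± 0.14, 1.09 ± 0.19 and 1.27 ± 0.19 (limma adjusted p = 8.92e-10, 1.28e-05 and 1.54e-06), and 0.60, 0.33 and 0.51 on the same-total scale, the second not called. From the mean of 50 and 60 min to the mean of 90 and 120 min Amotl2 fell by 0.83 ± 0.12, 1.47 ± 0.15 and 1.67 ± 0.15 on the log2 scale (adjusted p = 3.72e-05, 8.79e-09 and 1.08e-09), at percentiles 1.4, 0.2 and 0.1 of all genes, whose median was 0.02, -0.23 and -0.23. The fall was called under every alternative tried, the values running from -0.99 to -0.66, from -1.97 to -1.16 and from -2.27 to -1.35. With IAA it ended under mitosis at 120 min (-0.52 ± 0.19, adjusted p = 0.0188), and without IAA the same value was -0.38 ± 0.19 (adjusted p = 0.0755). The first was not called without replicate 1 (-0.45) or replicate 3 (-0.52) or without the block (-0.50). The difference between the arms at 120 min was -0.20 ± 0.45 in the fit used for IAA, which has no replicate block. With the block it was -0.20 ± 0.21, and it was called in neither fit.

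Tead1, a DNA-binding partner of YAP (chr7:112679318-112906807, plus strand, 227 kb), had its highest levels after release at 90 or 120 min. The mean was highest at 90 min in each arm, but 90 min holds replicates 1 and 3 and 120 min replicates 1 and 2. Within replicate 2 the peak was at 120 min in each arm, and within replicate 1 it was at 120 min in CCNA-GFP and CTCF-AID -IAA cells and at 90 min with IAA. In CCNA-GFP cells it was at 2.75, 4.62 and 3.99 TPM in M, 4.53 and 4.28 TPM at 60 min, 5.08 and 7.95 TPM at 90 min, 6.02 and 6.54 TPM at 120 min and 4.03, 6.98 and 7.38 TPM in asynchronous cells. In CTCF-AID -IAA cells it was at 3.46, 5.83 and 6.94 TPM in M, 5.06 and 5.80 TPM at 60 min, 5.11 and 10.3 TPM at 90 min, 5.36 and 7.52 TPM at 120 min and 5.02, 6.24 and 9.06 TPM in asynchronous cells. The M and 60 min libraries overlapped in both, and replicate 3 was the highest at 90 min. With IAA it was at 5.07, 5.25 and 7.16 TPM in M, 4.15 and 5.42 TPM at 60 min, 4.63 and 9.07 TPM at 90 min, 4.28 and 7.51 TPM at 120 min and 5.02, 6.78 and 7.97 TPM in asynchronous cells, and these stages overlapped. Tead1 was not called at 60 min in any arm (log2 fold changes 0.28 ± 0.15, 0.20 ± 0.13 and -0.08 ± 0.13, limma adjusted p = 0.0884, 0.138 and 0.563), although without replicate 2 the CCNA-GFP value was 0.60 and called. It was called at 90 and 120 min in CCNA-GFP (0.69 and 0.71, adjusted p = 0.000215 and 0.000192) and CTCF-AID -IAA cells (0.42 and 0.40, adjusted p = 0.00409 and 0.00705) and not with IAA (0.16 and 0.14, adjusted p = 0.249 and 0.308). Without IAA the 90 min value was not called without replicate 3 (0.31), nor the 120 min value without replicate 2 (0.41), and neither was called without the block (0.42 and 0.24). The difference between the IAA arms at 90 min was -0.14 ± 0.32 in the fit without the block and -0.14 ± 0.14 with it, called in neither. On the same-total scale the called values turned to -0.31 and -0.27 in CCNA-GFP cells, the first called lower, and to -0.11 and -0.11 in CTCF-AID -IAA cells. After the burst Tead1 rose by 0.50 ± 0.13, 0.28 ± 0.10 and 0.25 ± 0.10 (adjusted p = 0.00429, 0.0109 and 0.0234), and by 0.48, 0.57 and 0.54 on the same-total scale. Without the block or without replicate 3 this rise was called in no arm, at 0.39, 0.28 and 0.25 and at 0.39, 0.13 and 0.15, and without replicate 2 it was 0.22 and 0.16 in the CTCF-AID arms, not called.

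From 50 and 60 min to 90 and 120 min, the members thus went different ways. In CCNA-GFP cells 3 were called higher (Actb, Actg1 and Tead1) and 1 lower (Amotl2), against 23.9% and 21.2% of all genes. In CTCF-AID -IAA cells 1 was called higher (Tead1) and 4 lower (Amotl2, Srf, Vcl and Yap1), against 13.2% and 56.5%, and in CTCF-AID +IAA cells 1 was called higher and 3 lower (Amotl2, Vcl and Yap1), against 13.1% and 56.7%. The falls of Srf (-0.47), Vcl (-0.47 and -0.49) and Yap1 (-0.31 and -0.25) were not called on the same-total scale, on which Yap1 was at 0.00 and 0.07 and Amotl2 alone was called lower. Without replicate 1 the falls of Vcl (-0.32 and -0.25) and that of Yap1 with IAA (-0.08) were not called, and the last was not called without the block either (-0.25). The rise of Actb in CCNA-GFP cells (0.29 ± 0.11, adjusted p = 0.044) was not called when any one replicate was left out, and that of Actg1 (0.64 ± 0.21, adjusted p = 0.0181) was not called without the block (0.67) or with a pseudocount of 0.1 (0.67). The CCNA-GFP value for 50 min rests on 1 library.

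**Figure D3:**
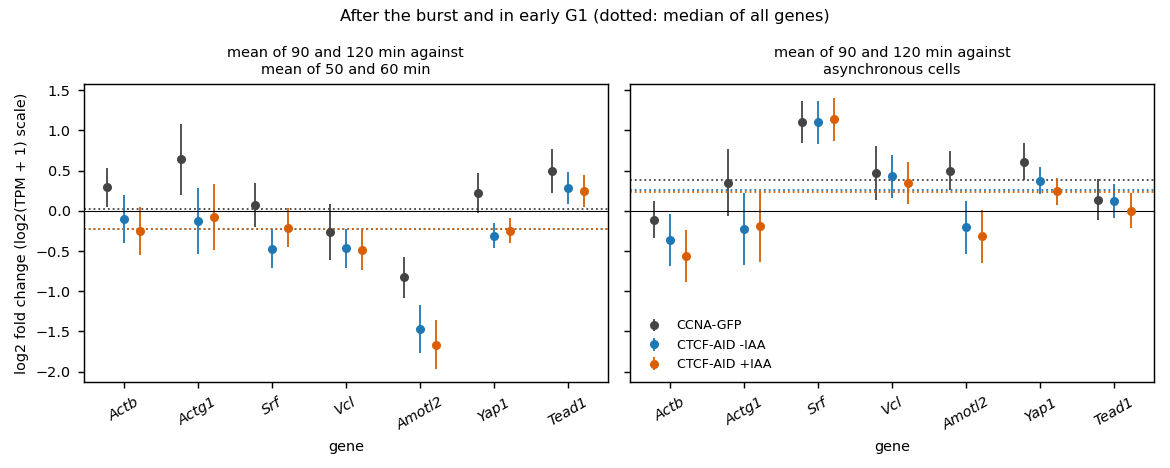
Log2 fold change (log2(TPM + 1) scale) of 7 genes from the mean of 50 and 60 min to the mean of 90 and 120 min (left) and from asynchronous cells to the mean of 90 and 120 min (right), by arm. Points are limma estimates, vertical lines 95% intervals and dotted lines the medians of all genes; Amotl2 is the lowest on the left and Srf the highest on the right in each arm.

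Across the 25 combinations of arm and stage, the mean log2 profiles of the members correlated most between the actins (Pearson r = 0.961). Srf with Vcl (0.909), Vcl with Yap1 (0.878) and Srf with Yap1 (0.823) followed, and Amotl2 with Tead1 was the lowest (-0.243). These correlations describe means that share libraries and the stage-dependent total, and no usual value between any pair of genes is given for reference. Outside the members, among 9574 genes, the profiles closest to Actb were those of Rps27 (r = 0.976) and Rps12 (0.975), and to Actg1 those of Rps12 (0.976) and Gas5 (0.975). Closest to Srf were Hrh3 and Dvl1 (both 0.981), to Vcl Nmt2 (0.987) and Sdcbp (0.982), to Amotl2 Calm2 and Irf1 (both 0.977), to Yap1 Spen (0.986) and Tex10 (0.983), and to Tead1 Pex14 (0.973) and Dnajc6 (0.972).

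The question put to the CTCF-AID cells was whether CTCF loss altered reactivation. IAA gave no call among the members. At each of 8 stages the 2 arms were compared in limma without a block, at an adjusted p under 0.1 and a log2 fold change over 0.2 in size. Of 56 combinations of gene and stage 0 were called, where 1.01% of all genes were called in asynchronous cells and 0% in M and at 20 and 40 min. For 50, 60, 90 and 120 min the shares of all genes were 0.283%, 0.225%, 0.733% and 0.586%. An unadjusted p under 0.05 was held by 0 of the 56. Few of the 10237 genes had one in this fit, which does not take out differences between replicates. Their numbers were 286 in asynchronous cells, 23 in M and 31 and 85 at 20 and 40 min. At 50, 60, 90 and 120 min they were 199, 182, 246 and 215, so the 0 of the members says little. With the replicate block 0 of the 56 were called as well and 2 had an unadjusted p under 0.05, both for Srf. In that fit 2.43% of all genes were called in asynchronous cells, 0% in M and at 20 min, 0.0195% at 40 min, and 0.987%, 1.01%, 1.71% and 1.43% for 50, 60, 90 and 120 min. The 95% intervals of the fit without the block were wide for some genes. At 60 min the effect was 0.14 (from -0.30 to 0.57) for Srf, 0.12 (from -0.80 to 1.04) for Amotl2, -0.12 (from -0.84 to 0.61) for Actg1, -0.14 (from -0.60 to 0.32) for Actb, -0.16 (from -0.81 to 0.49) for Tead1, -0.01 (from -0.49 to 0.47) for Vcl and -0.06 (from -0.38 to 0.26) for Yap1. With the block they were narrower, from -0.31 to 0.54 for Amotl2, from -0.70 to 0.47 for Actg1, from -0.56 to 0.28 for Actb, from -0.44 to 0.12 for Tead1, from -0.36 to 0.33 for Vcl, from -0.28 to 0.16 for Yap1 and from -0.21 to 0.48 for Srf. The effect over 20 to 60 min was set against that in asynchronous cells, and that over 50 and 60 min against that in M. These differences were called for 0 of 7 members, against 0.0195% and 0.00977% of all genes. In each, 0 members and 117 of all genes had an unadjusted p under 0.05. With the block these were also called for 0 members, against 0.352% and 0.322% of all genes.

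The member nearest to a call was Srf. At 90 min it was at 4.86 and 5.95 TPM without IAA and 7.39 and 7.82 TPM with IAA, without overlap, a log2 difference of 0.43 ± 0.21 (limma unadjusted p = 0.0524, adjusted p = 1), and with the replicate block an unadjusted p of 0.0168 and an adjusted p of 0.56. In asynchronous cells the difference was 0.30 ± 0.17 (unadjusted p = 0.09, adjusted p = 1) and the groups overlapped, and with the block the unadjusted p was 0.0357 and the adjusted p 0.689. The blocked 95% intervals, from 0.08 to 0.78 at 90 min and from 0.02 to 0.59 in asynchronous cells, did not include 0. They are not adjusted for the number of genes and stages compared. Over all 18 pairs of libraries of the same stage and replicate, Srf was higher with IAA in 14, a number reached or passed by 3.37% of genes, with differences from -0.17 to 0.52. The pairs share 3 experiments, so this is a description. Tead1 was higher with IAA in 4 of 18 pairs, where 15.8% of genes had as few or fewer, and the other members in 6 to 8.

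**Figure D4:**
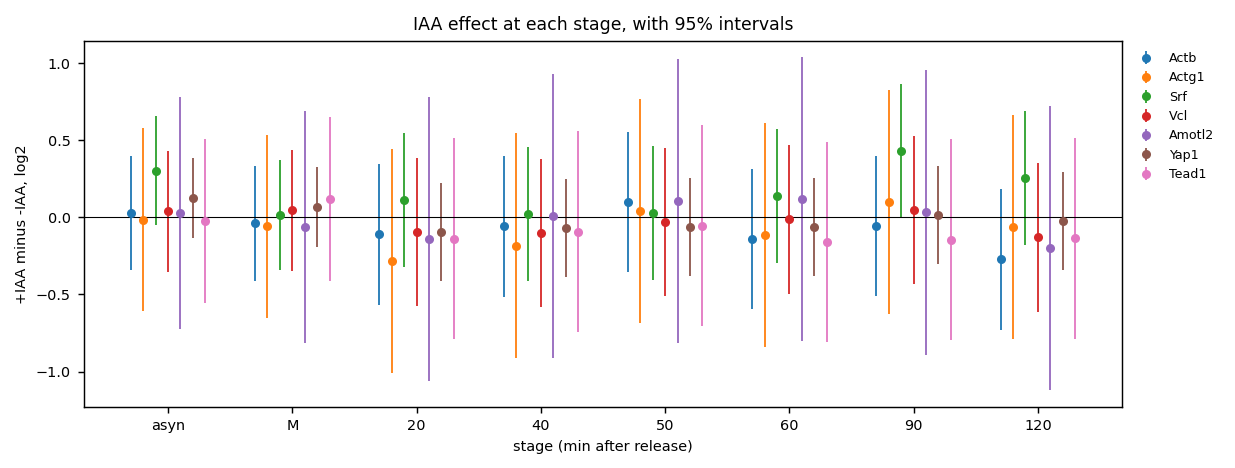
Difference between CTCF-AID +IAA and -IAA cells (log2(TPM + 1) scale) for 7 genes at 8 stages, with 95% intervals from limma without the replicate block. Every interval of this fit includes 0, and the Srf value of 0.43 at 90 min is the highest.

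In asynchronous cells Actg1, Srf, Vcl and Amotl2 differed between replicates in the same order in all 3 arms, replicate 2 above 3 above 1. Of the 9574 shared genes 2.61% had that order in all arms. The order was taken from these members, so the share is a description, and genes keeping any other order were not counted. Yap1 and Tead1 also kept the same order in all 3 arms, replicate 3 above 2 above 1, and Actb did not keep its order. Amotl2 was 4.36 and 5.18 times higher in replicate 2 than in replicate 1 in the CTCF-AID arms, a spread (on TPM + 1) at percentiles 99.4 and 99.7 of all genes, and 1.63 times in CCNA-GFP cells. Vcl was 4.11 times higher in CCNA-GFP cells, at 0.986 TPM in replicate 1, 4.06 TPM in replicate 2 and 2.06 TPM in replicate 3, and 2.19 and 2.45 times in the CTCF-AID arms. Srf was 2.54, 2.07 and 2.08 times higher. In M the same ratios of the highest to the lowest library were 2.00, 1.26 and 1.09 for Vcl, 1.77, 1.19 and 1.31 for Srf and 1.45, 1.62 and 1.79 for Amotl2. For Actg1 the spread was greater in M, with ratios of 2.52, 2.42 and 3.32 against 1.87, 1.38 and 1.80 in asynchronous cells. Comparisons with asynchronous cells carry this spread.

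**Figure D5:**
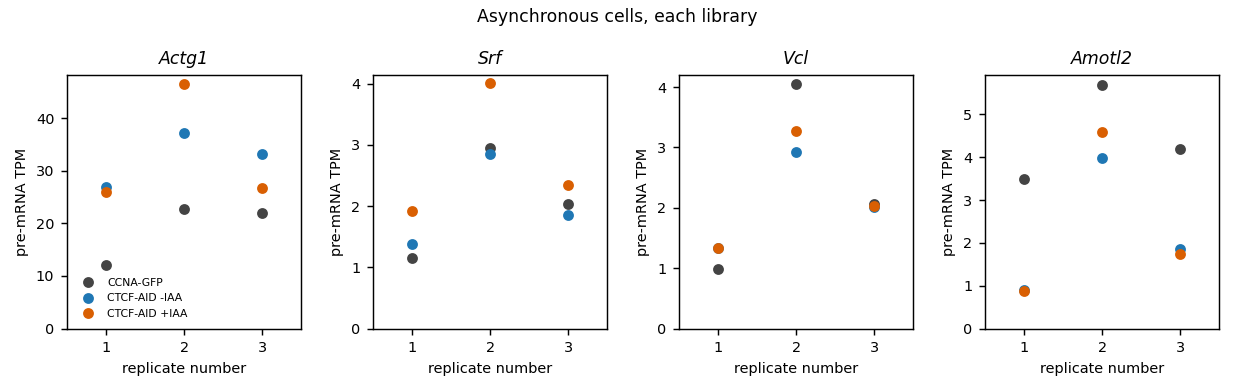
Pre-mRNA level (TPM, linear axis from 0) of Actg1, Srf, Vcl and Amotl2 in each asynchronous library against the replicate number, with arms in colour. Replicate 2 is the highest and replicate 1 the lowest in all 3 arms for each of these genes.

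The wider pathways were read from 3 lists of other genes. Of 33 SRF cofactors and cytoskeletal targets 24 were listed, and 22, 18 and 19 were called higher at 60 min than in M, where 88.3%, 84.8% and 82.2% of all genes were, with 0 called lower in each arm, against 0.515%, 2.7% and 4.04% of all genes, and a median log2 fold change of 0.74, 0.82 and 0.74. Profilin 1 (Pfn1) and tropomyosin 3 (Tpm3), which bind actin monomers and coat filaments, had the highest values in CCNA-GFP cells at 1.62 ± 0.14 and 1.63 ± 0.14 (limma adjusted p = 1.7e-09 and 1.43e-09). They were called also in CTCF-AID -IAA cells (1.35 and 1.05). Fhl2 (-0.04 ± 0.08, adjusted p = 0.665) and Tagln (0.07 ± 0.19, adjusted p = 0.751), both classical SRF targets of muscle, had the lowest values and were called in no arm at 60 min.

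Of 24 genes of the Hippo pathway 21 were listed, and 18, 18 and 17 were called higher at 60 min and 0 lower, beside the same 88.3%, 84.8% and 82.2% of all genes called higher, with medians of 0.65, 0.62 and 0.49. The kinase gene Taok2 (1.56 ± 0.14) and Mob1b, an activator of the LATS kinases (1.19 ± 0.14), were the highest in CCNA-GFP cells (limma adjusted p = 1.86e-09 and 8.81e-08). Stk3, a kinase that acts on LATS, was at -0.03 ± 0.06 and Amotl1, the paralog of Amotl2, at -0.24 ± 0.11 (adjusted p = 0.634 and 0.0526), neither called. Of 18 other targets of YAP and TEAD 11 were listed for CCNA-GFP and 10 for CTCF-AID, of which 8, 7 and 7 were called higher, against 88.3%, 84.8% and 82.2% of all genes, and 0, 1 and 1 lower, against 0.515%, 2.7% and 4.04%, with medians of 0.61, 0.79 and 0.73. Gadd45a, a stress-response gene, rose by 2.00 ± 0.19 and Nuak2, a kinase gene, by 1.20 ± 0.11 in CCNA-GFP cells (adjusted p = 6.28e-09 and 2.59e-09), and both were called in the CTCF-AID arms. Ptpn14, which binds YAP, was at -0.13 ± 0.16 and Dock5 at -0.10 ± 0.06 (adjusted p = 0.444 and 0.113), neither called. The medians of these 3 lists lay within 0.20 of those of all genes at 60 min in each arm. At other stages some lay further off. Those of the YAP and TEAD targets were 0.71, 0.66 and 0.72 at 90 min, against 0.73, 0.40 and 0.41. At 120 min they were 0.49, 0.70 and 0.58, against 0.68, 0.34 and 0.35. The Hippo medians at 40 min were 0.13, 0.15 and 0.08, against 0.26, 0.34 and 0.30. These differences were not tested. None of the listed genes of the 3 lists was called for IAA at any stage in the fit without the block. There 0 had an unadjusted p under 0.05, in a fit where few of all genes had one.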

How the data were processed

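RNA was ribodepleted and sequenced as stranded paired-end libraries. The authors aligned reads with STAR to mm10 and estimated TPM with RSEM, using a Gencode vM12 annotation to which a pre-mRNA isoform was added for each gene, and the deposited values are the TPM of that isoform limited, per the methods, to curated RefSeq genes whose mean passed 0.5 TPM among asynchronous libraries or in 2 or more post-mitotic ones. Versions are not given in the sources used here. No counts were used, so depth is unknown and no counting interval is given. The lowest values are whole multiples of a step that differs between libraries (0.01 times a factor of 2.17 to 3.81 in CCNA-GFP and 1.84 to 2.8 in CTCF-AID), a rescaling the sources do not name. Each table was fitted with limma 3.58.1 in R 4.3.3 (lmFit, eBayes with a trend) on log2(TPM + 1), and all p-values in the text come from these fits, adjusted over all genes of the table. Fold changes on this scale understate those of low genes. The study's methods make same-numbered samples 1 independent experiment, and all 41 and 182 correlations of same-numbered deviations were above 0.1 (lowest 0.13 and 0.11), so stages were compared with the replicate as a block. The script was tested on simulated data. The named genes of each list were the 2 highest and 2 lowest at 60 min in CCNA-GFP cells. Positions are those of Gencode vM21 on GRCm38. The members, lists and alternatives were chosen with earlier results of these data known. One further gene list is not reported here.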

Additional observations from a re-analysis of the deposited data

Results flagged for a closer look

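For 6 changes of the deposited TPM every replicate pair of CCNA-GFP cells moved up and every pair of CTCF-AID -IAA cells moved down. Whether the tables of the lines share a scale is not given in the sources used here, and the difference between the lines was not tested. From 60 to 120 min the mean log2 difference of Actb was 0.29 in CCNA-GFP and -0.21 in CTCF-AID -IAA cells, and that of Actg1 was 0.57 and -0.43, a split shown by 4.42% of the 9574 shared genes. Against asynchronous cells Actg1 at 120 min was at 0.52 and -0.20 and Amotl2 at 0.20 and -0.39, where 2.76% of genes had this split. On the same-total scale the early G1 value of Amotl2 against asynchronous CCNA-GFP cells was 0.00. Against M, Amotl2 at 120 min was at 0.59 and -0.39 (4.44% of genes), and Yap1 in asynchronous cells was at 0.32 and -0.16 (7.08% of genes). On the same-total scale the limma values of these changes against M in CCNA-GFP cells turned to -0.38 and -0.18, both called lower. The opposite directions against M therefore depend on the scale.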

How the results depend on the processing

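Of 111 called values of single genes, 44 kept direction and call under every alternative tried, among them the rise of Actg1 from 40 min on, the fall of Amotl2 after the burst and the early G1 excess of Srf in each arm. The scale mattered most. With libraries scaled to the same total 59 were lost or turned, with the step factor 9, without the replicate block 23, with a pseudocount of 0.1 or a minimum mean of 1 TPM 1 each, without replicates 1, 2 and 3 15, 8 and 16, with 60 min alone as the burst 3, and with eBayes without a trend 0. The same-total scale assumes an unchanged sum of listed TPM; for the other settings the cause was not tested. Calls of members for IAA stayed at 0 under each alternative. Depth is unknown, so limits are set by the 1 to 3 libraries per stage.

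On the same-total scale 2 members were called higher than M at 40, 60, 90 and 120 min and in asynchronous CCNA-GFP cells. Without IAA the counts were 3 at 50 min and 2 at each of 40, 60, 90 and 120 min. With IAA they were 3, 3 and 2 at 50, 60 and 90 min. After the burst 1 was called lower in each CTCF-AID arm, and in early G1 1 was called higher in each arm and 2, 4 and 4 lower. In CCNA-GFP cells the values that turned were those of Actb (-0.29), Tead1 (-0.83) and Yap1 (-0.14) at 60 min, Tead1 (-0.31) and Yap1 (-0.05) at 90 min, Amotl2 (-0.38), Tead1 (-0.27), Vcl (-0.16) and Yap1 (-0.09) at 120 min, Amotl2 (-0.14), Srf (-0.22) and Yap1 (-0.18) in asynchronous cells, and Amotl2 in early G1 (0.00). Without IAA Yap1 turned at 50, 60 and 90 min (-0.41, -0.22 and -0.31) and after the burst (0.00), and Tead1 at 60, 90 and 120 min (-0.64, -0.11 and -0.11). With IAA Yap1 turned at 50 and 60 min (-0.58 and -0.35), after the burst (0.07) and in early G1 (-0.09).

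With the step factor 1 member was called at 30 min, 2, 1 and 1 were called higher in early G1, 3 and 2 lower in the CTCF-AID arms, and 4 higher in asynchronous +IAA cells than in M. Srf in asynchronous -IAA cells turned to 0.15 and Yap1 in early G1 with IAA to -0.01. The calls of Yap1 at 50 min with IAA (0.21) and at 90 min without IAA (0.19) were lost. With a minimum mean of 1 TPM 1 member was called at 30 min. With 60 min alone as the burst 0 were called higher afterwards in either CTCF-AID arm.

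Without the replicate block 3 members were called higher in asynchronous CCNA-GFP cells than in M, 3 and 3 at 90 and 120 min without IAA, 0, 0 and 0 higher after the burst, 0 lower in early G1 without IAA, 1 higher in early G1 with IAA and 0 lower than M at 120 min with IAA.

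Leaving out each replicate in turn gave 0 to 1 members called at 30 min, 3 to 5 at 40 min, 3 to 6 at 90 min in each CTCF-AID arm, and 3 to 6 at 120 min with IAA. After the burst 1 to 3, 0 to 1 and 0 to 1 were called higher, 1 to 2 lower in CCNA-GFP cells and 1 to 5 lower with IAA. In early G1 0 to 1 were called lower in each CTCF-AID arm and 1 to 2 higher with IAA. The value of Tead1 at 60 min ran from -0.03 to 0.60 in CCNA-GFP cells and from -0.14 to 0.01 with IAA, and that of Srf in asynchronous -IAA cells from -0.17 to 0.11, each turning without replicate 1.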
